A study of Homo sapiens with 9 samples.

Results

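The 48 genes described here encode proteins that copy DNA in S phase or serve the nucleotide supply, repair, chromatin assembly and regulation around it. They are not the whole machinery: subunits such as POLD2, RPA3, RFC1, ORC3 and ORC4 are outside the 48 and are counted in further lists. The 48 were taken by name from the deposited table of 56609 gene symbols, of which 13968 averaged 1 TPM or more across the 9 samples and were tested. All 48 were in the table and all 48 passed that filter on low values. By role they fall into 16 origin and helicase genes, 15 polymerase and fork genes, 5 nucleotide supply genes, 4 repair and checkpoint genes, 5 genes of chromatin and histone supply, and 3 regulators. TPM is a share of each library per length of transcript, scaled to a total of 1000000 transcripts.

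RNA was measured in MCF10A, an established line of human breast epithelial cells that does not form tumours. The high calcium group (3 samples) received 10 mM calcium together with ionomycin, an ionophore that carries calcium across membranes and that the labels give as 1 mM, for 16 h. The TGFb3 group (3 samples) received 10 nM transforming growth factor beta 3 for 16 h. The control group (3 samples) is labelled untreated. Per the labels' protocols, all cells were kept in DMEM/F12 medium with 5% horse serum, EGF, hydrocortisone, cholera toxin, insulin and antibiotics. Calcium and ionomycin were given together, so their parts in any difference cannot be told apart. Replicates carry a number in the labels, but nothing says that they came from separate cultures, so the spread that the p-values rest on is that of these samples and may be technical. The table holds no counts and the sequencing depth is unknown.

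Before a cell copies its DNA, the origin recognition complex, CDC6 and CDT1 load the ring-shaped MCM2 to MCM7 helicase onto origins, and CDC45 and the GINS complex later switch it on. Polymerases then extend primers at the forks, held to the template by the PCNA clamp, while ribonucleotide reductase and thymidylate synthase supply the nucleotides. Many of these genes are known targets of E2F transcription factors, which the retinoblastoma protein holds in check in resting cells and cyclin-dependent kinases release. In mammary epithelium, transforming growth factor beta is known as a growth inhibitor. The study's title sets the calcium treatment beside milk stasis and the involution of the gland.

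Promoters of the members, many of them known E2F targets, were searched for E2F-type and other sequences. An E2F-type match stood in some of them and not in others. Of the 48 members, 42 had an entry in the RefSeq promoter table (GRCh38.p14), which spans 250 bases before to 50 bases after each start. An E2F-type 8-mer, which is TTTCCCGC, TTTCGCGC, TTTGCCGC or TTTGGCGC on either strand, occurred in 23 of the 42 promoters (54.8%), in 5.51% of the 9511 promoters of tested symbols and in 3.33% of all 27305 promoters. In the shorter window from 100 bases before the start, a match stood in 21 of the 42, in 2.68% and in 1.71%. The box CCAAT, searched on both strands, stood in 57.1% of member promoters, in 37.1% of those of tested symbols and in 35.7% of all. The CHR element, TTTGAA or TTCGAA on either strand and known from genes of mitosis, stood in 4.76% of member promoters against 11.2% and 16.6%. None of these letter strings contains another. A match is a description of the sequence and not a bound site. Shown here is, for each role group, the promoter of the member in the table that fell most in high calcium, from 100 bases before to 50 bases after the start, 5′ to 3′ on the gene's strand, with each E2F-type match in capitals.
GINS2: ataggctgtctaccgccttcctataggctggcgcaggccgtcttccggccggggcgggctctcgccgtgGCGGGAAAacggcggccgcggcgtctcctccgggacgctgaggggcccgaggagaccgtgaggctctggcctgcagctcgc
POLE2: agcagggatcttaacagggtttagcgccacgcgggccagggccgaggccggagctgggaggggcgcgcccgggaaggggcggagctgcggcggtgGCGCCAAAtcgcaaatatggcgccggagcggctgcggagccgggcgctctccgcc
TYMS: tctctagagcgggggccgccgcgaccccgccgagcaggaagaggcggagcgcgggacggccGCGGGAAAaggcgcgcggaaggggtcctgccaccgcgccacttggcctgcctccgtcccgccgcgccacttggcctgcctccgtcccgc
EXO1: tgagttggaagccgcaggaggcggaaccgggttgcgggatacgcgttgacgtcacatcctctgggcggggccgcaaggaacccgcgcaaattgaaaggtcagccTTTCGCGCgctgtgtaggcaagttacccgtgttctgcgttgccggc
HELLS: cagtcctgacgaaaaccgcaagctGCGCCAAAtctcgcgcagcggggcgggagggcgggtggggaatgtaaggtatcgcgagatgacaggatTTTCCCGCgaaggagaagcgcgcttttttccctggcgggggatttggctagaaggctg
DTL: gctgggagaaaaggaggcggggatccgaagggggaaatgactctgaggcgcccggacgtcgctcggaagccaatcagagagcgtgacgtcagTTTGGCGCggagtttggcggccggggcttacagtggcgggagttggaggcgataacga
Distances are those of the first base of a match as printed. GINS2 (chr16:85688905-85689054, minus strand) holds its match 31 bases before the start. In POLE2 (chr14:49688165-49688314, minus strand) the match begins 5 bases before the start and runs across it. TYMS (chr18:657553-657702, plus strand) holds it 39 bases before the start and DTL (chr1:212035648-212035797, plus strand) 8 bases before it. In EXO1 (chr1:241848104-241848253, plus strand) it lies 4 bases after the start. HELLS (chr10:94545688-94545837, plus strand) has 2 matches, 76 and 8 bases before the start. Over the 42 promoters there were 31 matches, 25 of them within 100 bases of the start, and 6 promoters had at least 2. Overlapping matches on opposite strands were counted separately, as in MCM2 and MCM6, and the 2 matches of MCM2 are such a pair. By role, a match stood in 9 of 13 origin and helicase promoters, 7 of 13 polymerase and fork promoters, 1 of 5 nucleotide supply promoters, 2 of 4 repair promoters, 2 of 5 chromatin promoters and both regulator promoters in the table.

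All 48 genes were lower in each treatment than in the control. They were chosen with earlier results of these data known, so the counts below describe this list and are not an independent test. In high calcium, 48 of 48 members were called lower at a Benjamini-Hochberg adjusted p under 0.05 in limma, where 17% of all tested symbols were called lower and 46.1% higher. In TGFb3, 48 of 48 were called lower, where 33.1% of all tested symbols were called lower and 26.5% higher. The median log2 difference of the members from control was -1.40 in high calcium, beside 0.22 for all tested symbols, and -0.89 in TGFb3, beside -0.06. A log2 difference of -1 or less was reached by 40 members in high calcium (2.56% of all tested symbols) and by 19 in TGFb3 (4.07%). For each of the 48 members, treated and control samples were fully separated in both comparisons, which held in the lower direction for 19.6% of tested symbols in high calcium and 35.4% in TGFb3. Both comparisons use the same 3 control samples. In bulk RNA, fewer cells in S phase and less of these RNAs per cell cannot be told apart.

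**Figure D1:**
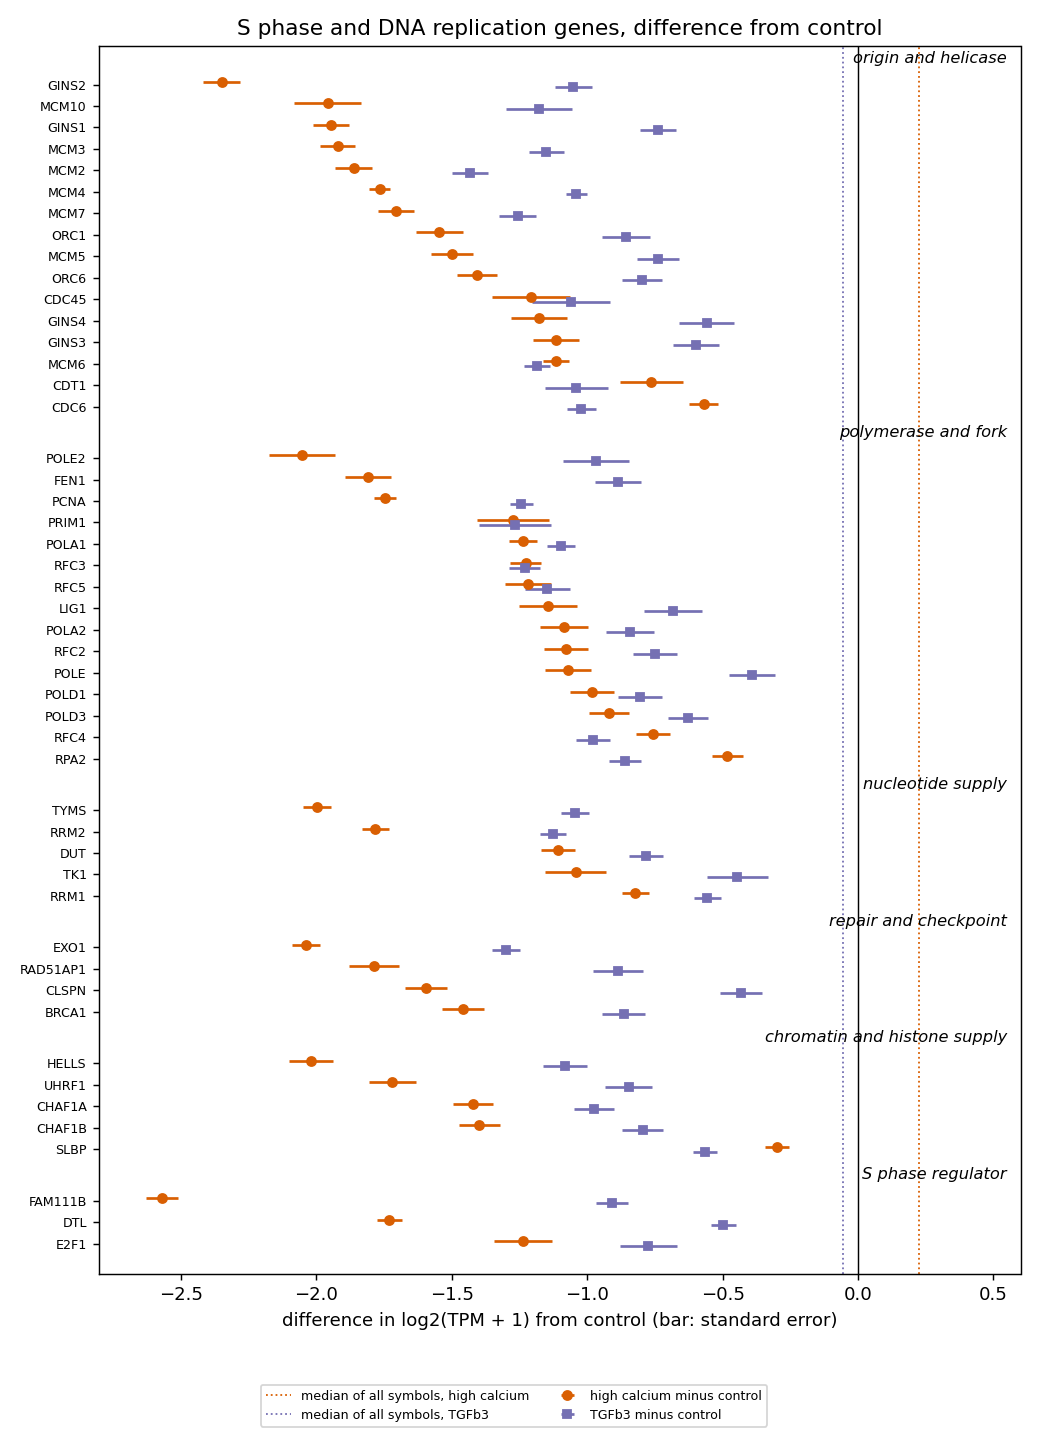
Difference in log2(TPM + 1) from control for each of the 48 genes (circles, high calcium minus control; squares, TGFb3 minus control; bars, standard error), sorted within role groups; dotted lines mark the median of all tested symbols. Every point lies left of 0, from -2.57 for FAM111B in high calcium to -0.30 for SLBP in high calcium.

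TPM is a share, and the shares of abundant RNAs moved in high calcium. RNA encoded by the mitochondrial genome took 11.1% to 11.9% of TPM in high calcium, 22.2% to 23.3% in TGFb3 and 21.7% to 23.3% in control, and the nuclear noncoding RNA MALAT1 stood at 388 to 449 TPM in high calcium, 191 to 216 TPM in TGFb3 and 124 to 208 TPM in control. The values were therefore rescaled in 3 ways: median ratio rescaling, quantile normalisation, and TPM recomputed without mitochondrial genes. Under these, 29.9%, 32% and 27% of tested symbols were called lower in high calcium and 30.4%, 28.6% and 32.7% higher, and 48 of 48 members remained called lower under each. In TGFb3 the share called lower was 30.3%, 32.7% and 33.2%, and the share called higher 29.2%, 27.2% and 26.5%, again with all 48 members lower. All 8 basal epithelial markers checked were above 1 TPM in every sample, KRT14 the lowest at 2.26 to 28.6 TPM, and so were 4 of 5 epithelial markers, while KRT19 was under 1 TPM throughout. The basal markers summed to 6023 to 6349 TPM in high calcium and 6362 to 7242 TPM in TGFb3, against 2916 to 3106 TPM in control, and the epithelial markers to 1475 to 1512 TPM in high calcium and 788 to 834 TPM in TGFb3, against 858 to 950.1 TPM in control. Markers at 0 in all 9 samples were PTPRC and CD3E of leukocytes, CDH5 of endothelium, THY1 and COL1A2 of fibroblasts and ADIPOQ and LEP of fat cells. Others in the leukocyte, endothelial and fibroblast lists were not. Summed leukocyte markers were 53.0 to 73.9 TPM in high calcium and 10.8 to 15.6 TPM in TGFb3, against 19.6 to 23.4 TPM in control. CD14 stood at 32.3 to 39.1 TPM in high calcium, 1.99 to 3.26 TPM in TGFb3 and 18.1 to 21.4 TPM in control. CD68 stood at 13.9 to 37.35 TPM in high calcium, 8.44 to 13.6 TPM in TGFb3 and 1.355 to 3 TPM in control. The other 3 of the 5 leukocyte markers were under 1 TPM in all samples. Endothelial markers, with KDR at 6.76 to 6.93 TPM and TEK at 4.57 to 5.4 TPM in high calcium, summed to 11.7 to 12.6 TPM in high calcium and 1.67 to 2.51 TPM in TGFb3, against 4.54 to 5.5 TPM in control. Summed fibroblast markers were 9.95 to 12.6 TPM in high calcium and 28.5 to 32 TPM in TGFb3, against 2.6 to 3.52 TPM in control. DCN stood at 7.52 to 8.16 TPM in high calcium, 12.2 to 14.9 TPM in TGFb3 and 1.77 to 2.71 TPM in control. COL1A1 stood at 1.72 to 3.93 TPM in high calcium, 13.6 to 17 TPM in TGFb3 and 0.73 to 0.84 TPM in control. The other 5 of the 7 fibroblast markers were under 1 TPM in all samples. The part of these markers and of MALAT1 in the results was not tested.

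Summed over the 48 genes, TPM was 1116, 1139 and 1141 in the high calcium samples, 1564, 1527 and 1582 in the TGFb3 samples, and 3017, 3203 and 3083 in the control samples. Both treated groups lay below every control sample, and high calcium lay below TGFb3. The high calcium mean of 1132 ± 14 was 36.5% of the control mean of 3101 ± 94.3 (SD, n = 3 each; exact permutation test, two-sided p = 0.1, the smallest that 3 samples against 3 allow). The TGFb3 mean of 1558 ± 28 was 50.2% of control (exact permutation test, two-sided p = 0.1). With mitochondrial genes left out, the high calcium sum was 31.9% of control and the TGFb3 sum 50.3%. By role, the high calcium sum was lowest relative to control for the 3 regulators (24.8%) and the repair genes (27.8%), followed by origin and helicase genes (33.2%), nucleotide supply (37%), polymerase and fork genes (38.1%) and chromatin genes (49%). In TGFb3 the regulators stood highest relative to control (62%), followed by chromatin genes (57%), nucleotide supply (54%), repair genes (52.3%), origin and helicase genes (47.3%) and polymerase and fork genes (47.1%). Abundant genes weigh most in these sums: PCNA alone averaged 158 TPM in high calcium and 225 TPM in TGFb3, against 534 TPM in control. The place of the chromatin genes rests largely on SLBP, which made up 70.3 of their 110.7 TPM in high calcium. SLBP stood at 81.1% of control in high calcium and 67.3% in TGFb3. The other chromatin genes, UHRF1, HELLS, CHAF1A and CHAF1B, stood at 23.15% to 35.3% in high calcium and 46.2% to 55.8% in TGFb3. The middle of the 48 gene means was 14.3 TPM in high calcium, 20.8 TPM in TGFb3 and 38.4 TPM in control.

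**Figure D2:**
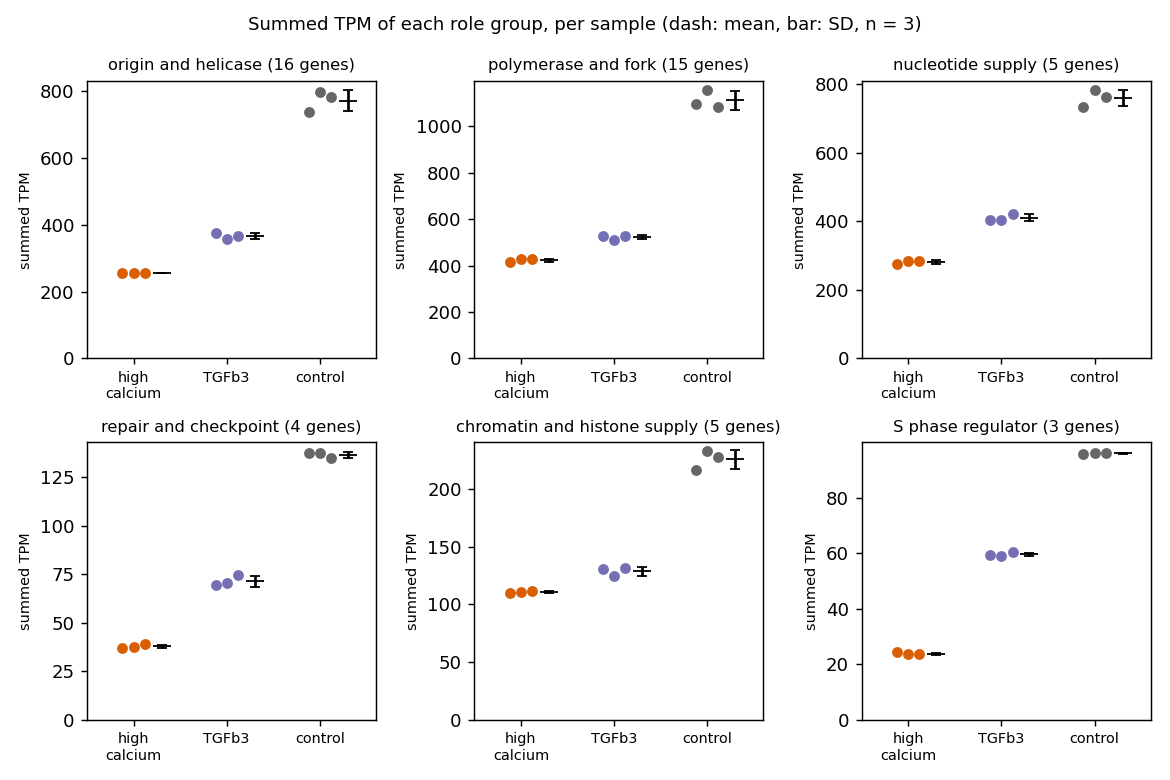
Summed TPM of each role group in the 9 samples (points, samples; dash and bar, mean and SD, n = 3; each panel starts at 0). In all 6 panels the high calcium samples lie lowest, the TGFb3 samples in between and the control samples highest, with the widest gap between the treatments for the regulators, at 24.8% and 62% of control.

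The origin and helicase genes fell in both treatments, by a median log2 difference of -1.52 in high calcium and -1.04 in TGFb3. GINS2, 1 of the 4 subunits of the GINS complex and encoded on the minus strand at chr16:85676198-85690073 (hg38), had 3.8, 3.82 and 3.56 TPM in high calcium, 10.5, 10.6 and 10.7 TPM in TGFb3 and 22.2, 24 and 23 TPM in control. The 3 groups stood apart with no overlap. Its log2 difference from control was -2.35 ± 0.069 in high calcium (SE; limma, Benjamini-Hochberg adjusted p = 3e-09) and -1.05 ± 0.069 in TGFb3 (adjusted p = 6.3e-07). GINS2 is overlapped on the other strand by GSE1, at 24.4 TPM. MCM10, which helps to assemble the fork, was at 5.51, 4.15 and 6.61 TPM in high calcium, 9.5, 10.1 and 10.1 TPM in TGFb3 and 23.2, 24.1 and 23.7 TPM in control, again without overlap. Its log2 difference from control was -1.96 in high calcium and -1.18 in TGFb3 (limma, Benjamini-Hochberg adjusted p = 4.7e-07 and 1.8e-05).

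Within the MCM2 to MCM7 ring, MCM2 (chr3:127598223-127622436, plus strand) had the largest fall of all 48 members in TGFb3. It was measured at 10.3, 9.65 and 10.2 TPM in high calcium, 14.8, 13.4 and 13.6 TPM in TGFb3 and 36.8, 39.9 and 41.1 TPM in control, which is 25.6% and 35.4% of the control mean. No treated sample reached the lowest control. The log2 difference was -1.86 ± 0.067 in high calcium and -1.43 ± 0.067 in TGFb3 (SE; limma, Benjamini-Hochberg adjusted p = 1.1e-08 and 7.1e-08). MCM7 followed the same order, with 34.2, 35.1 and 33.9 TPM in high calcium, 49.4, 45.4 and 47.4 TPM in TGFb3 and 102, 120.0 and 123 TPM in control, or 29.96% and 41.2% of the control mean. MCM6 did not: it had 39.9, 42.9 and 41.8 TPM in high calcium, 40.4, 39.3 and 38.8 TPM in TGFb3 and 88.4, 95.7 and 89.3 TPM in control. Both treatments lay below every control sample, with log2 differences of -1.11 in high calcium and -1.19 in TGFb3, and the samples of the treatments overlapped.

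**Figure D3:**
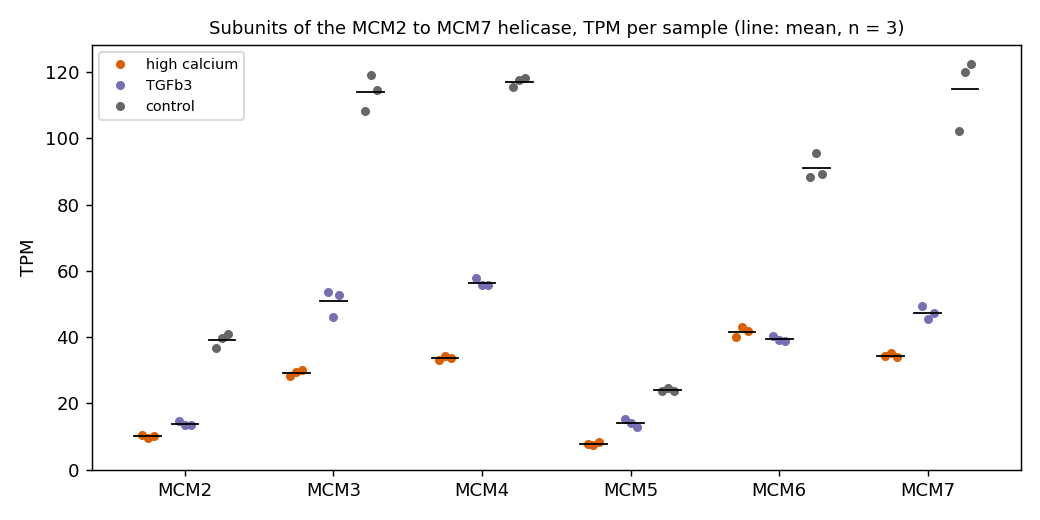
TPM of the 6 subunits of the MCM2 to MCM7 helicase in each sample (points, samples; line, mean of 3). For MCM2, MCM3, MCM4, MCM5 and MCM7 the high calcium samples lie below TGFb3 and TGFb3 below control, while for MCM6 the high calcium samples (39.9 to 42.9 TPM) and the TGFb3 samples (38.8 to 40.4 TPM) overlap.

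CDC6 and CDT1, which load the helicase, fell least in high calcium among the 16 origin and helicase genes. CDC6, an ATPase (chr17:40287633-40304657, plus strand), had 18.6, 19.96 and 19.4 TPM in high calcium, 13.8, 14.2 and 13.5 TPM in TGFb3 and 29.6, 29.4 and 28.4 TPM in control. High calcium samples lay between the other groups. The log2 difference was -0.57 ± 0.054 in high calcium and -1.02 ± 0.054 in TGFb3 (SE; limma, Benjamini-Hochberg adjusted p = 8.8e-06 and 1.6e-07). CDT1, its partner in loading, showed 7.31, 6.61 and 6.72 TPM in high calcium, 5.84, 4.51 and 6.26 TPM in TGFb3 and 11.7, 11.7 and 13.7 TPM in control. Its log2 difference was -0.76 ± 0.12 in high calcium and -1.04 ± 0.12 in TGFb3 (SE; limma, Benjamini-Hochberg adjusted p = 0.00026 and 3e-05). ORC1, the large ATPase of the origin recognition complex, was at 6.71, 7.46 and 7.14 TPM in high calcium, 12.5, 10.9 and 12.8 TPM in TGFb3 and 21.1, 24.9 and 22 TPM in control. In TGFb3 the smallest fall of this role group was that of GINS4, at 6.29, 5.87 and 6.06 TPM in high calcium, 9.08, 11.7 and 9.02 TPM in TGFb3 and 14.3, 16 and 14.7 TPM in control (-0.56 ± 0.10 on the log2 scale, limma, Benjamini-Hochberg adjusted p = 0.00088).

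Among the 15 polymerase and fork genes, the median log2 difference was -1.14 in high calcium and -0.88 in TGFb3. The largest fall in high calcium was that of POLE2, the second subunit of the leading-strand polymerase epsilon, with 5.05, 3.43 and 3.66 TPM in high calcium, 8.99, 9.23 and 10.7 TPM in TGFb3 and 18.9, 21 and 19.4 TPM in control. Its catalytic partner POLE had 11.5, 11.7 and 9.49 TPM in high calcium, 18.4, 17.5 and 18.1 TPM in TGFb3 and 24.4, 22.2 and 25.3 TPM in control. Against control, POLE2 fell to 20.5% and POLE to 45.5% in high calcium, and to 48.8% and 75.2% in TGFb3. The change of POLE in TGFb3, -0.39 ± 0.085 on the log2 scale, was the smallest fall of all 48 members there (SE; limma, Benjamini-Hochberg adjusted p = 0.0026). FEN1, the nuclease that trims the flaps of lagging-strand fragments, was at 13.7, 16.3 and 13.2 TPM in high calcium, 30.9, 27.5 and 26.1 TPM in TGFb3 and 51.2, 52.6 and 54.5 TPM in control. Against control it stood at -1.81 in high calcium and -0.88 in TGFb3 on the log2 scale (limma, Benjamini-Hochberg adjusted p = 6.4e-08 and 9.9e-06), and it overlaps FADS2 on the same strand, at 11 TPM, and TMEM258 on the other, at 59.4 TPM.

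PCNA (chr20:5114953-5126626, minus strand) was the most abundant member in every group. It had 156, 157 and 162 TPM in high calcium, 230.4, 224 and 220.1 TPM in TGFb3 and 533, 559.7 and 509 TPM in control, and the groups were widely apart. The log2 difference was -1.75 ± 0.042 in high calcium and -1.24 ± 0.042 in TGFb3 (SE; limma, Benjamini-Hochberg adjusted p = 8.4e-10 and 9.2e-09). PRIM1, the catalytic subunit of primase, had 20.8, 20.2 and 22.5 TPM in high calcium, 18.7, 18.2 and 27.9 TPM in TGFb3 and 51.7, 54.3 and 51.6 TPM in control. TGFb3 replicate 3 lay above every high calcium sample and the other TGFb3 samples below them. Its log2 difference was -1.27 in high calcium and -1.27 in TGFb3 (limma, Benjamini-Hochberg adjusted p = 1.8e-05 and 1.9e-05), and its annotation overlaps NACA on the same strand, a gene at 1069 TPM. RPA2, a subunit of the protein that coats single-stranded DNA, fell least of the 15 in high calcium, with 29.5, 30.1 and 30.7 TPM in high calcium, 23.1, 21.5 and 24.4 TPM in TGFb3 and 42.7, 44.2 and 40.6 TPM in control (-0.48 ± 0.059 and -0.86 ± 0.059 on the log2 scale against control). The clamp loader subunit RFC4 had 48.7, 53.9 and 57.8 TPM in high calcium, 46.6, 45.2 and 45.2 TPM in TGFb3 and 89.3, 95.8 and 87.7 TPM in control, and is overlapped on the other strand by EIF4A2 at 422 TPM.

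The 5 nucleotide supply genes had a median log2 difference of -1.11 in high calcium and -0.78 in TGFb3. TYMS, thymidylate synthase, had 48.9, 49.6 and 45.2 TPM in high calcium, 95.3, 87.7 and 97.8 TPM in TGFb3 and 191, 196 and 195 TPM in control. The control samples were above the TGFb3 samples, and these above the high calcium samples, without overlap. Its log2 difference was -2.00 ± 0.051 in high calcium and -1.05 ± 0.051 in TGFb3 (SE; limma, Benjamini-Hochberg adjusted p = 1.2e-09 and 9.5e-08), and ENOSF1 overlaps it on the other strand at 22 TPM. RRM2, the small subunit of ribonucleotide reductase whose level is known to follow S phase, had 73, 75.5 and 76.8 TPM in high calcium, 115, 123 and 119 TPM in TGFb3 and 243, 271 and 268 TPM in control. RRM1, the large subunit, was at 93.1, 95.2 and 96.4 TPM in high calcium, 111, 109 and 122 TPM in TGFb3 and 169.5, 174 and 162 TPM in control. Thus RRM2 was at 28.8% of its control mean in high calcium and 45.6% in TGFb3, and RRM1 at 56.3% and 67.9%. TK1, the salvage enzyme thymidine kinase 1, fell least in TGFb3, with 12.5, 17.5 and 13.4 TPM in high calcium, 24.1, 21.1 and 21.5 TPM in TGFb3 and 28.5, 30.8 and 32.6 TPM in control (-0.44 ± 0.11 on the log2 scale in TGFb3, limma, Benjamini-Hochberg adjusted p = 0.0064).

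For the 4 repair and checkpoint genes the median log2 difference was -1.69 in high calcium and -0.88 in TGFb3. EXO1, an exonuclease of mismatch repair and end resection, had 10.2, 10.4 and 10.8 TPM in high calcium, 18.2, 18.1 and 17.9 TPM in TGFb3 and 47, 45.5 and 45.3 TPM in control. Samples within a group differed by less than 2 TPM and the groups stood far apart. The log2 difference was -2.04 ± 0.051 in high calcium and -1.30 ± 0.051 in TGFb3 (SE; limma, Benjamini-Hochberg adjusted p = 1e-09 and 2.5e-08). RAD51AP1, a factor of recombination repair, had 9.66, 8.56 and 10.3 TPM in high calcium, 17.4, 17.8 and 20.7 TPM in TGFb3 and 35.7, 37.9 and 32.2 TPM in control. CLSPN, the adaptor through which stalled forks activate the kinase CHK1, had 8.08, 7.65 and 8.32 TPM in high calcium, 19.2, 17.9 and 20.5 TPM in TGFb3 and 24.6, 25.4 and 28.8 TPM in control. The TGFb3 samples of CLSPN lay much nearer to control than to high calcium, with log2 differences of -1.59 ± 0.078 in high calcium and -0.43 ± 0.078 in TGFb3 (SE; limma, Benjamini-Hochberg adjusted p = 8.6e-08 and 0.00082). BRCA1, a recombination factor at broken forks, was at 9.29, 11.1 and 9.53 TPM in high calcium, 14.4, 16.7 and 15.5 TPM in TGFb3 and 30.00, 28.6 and 28.6 TPM in control.

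Genes that rebuild chromatin behind the fork fell with a median log2 difference of -1.42 in high calcium and -0.85 in TGFb3. HELLS, a chromatin remodeller needed for DNA methylation, had 12.2, 11.3 and 11.9 TPM in high calcium, 23, 21.6 and 25.9 TPM in TGFb3 and 46.1, 52 and 54.7 TPM in control. No samples of its 3 groups overlapped, and the log2 difference was -2.02 ± 0.082 in high calcium and -1.08 ± 0.082 in TGFb3 (SE; limma, Benjamini-Hochberg adjusted p = 2.5e-08 and 1.8e-06). UHRF1, which reads hemimethylated DNA, was at 10.1, 12.2 and 9.9 TPM in high calcium, 20.7, 19.8 and 20.7 TPM in TGFb3 and 34.1, 39.7 and 38.7 TPM in control. CHAF1A, the large subunit of the CAF-1 histone chaperone, was at 11.2, 9.51 and 10.5 TPM in high calcium, 15, 14.9 and 13.6 TPM in TGFb3 and 28.5, 31 and 28.9 TPM in control. SLBP, which binds the stem-loop of histone mRNA, had the smallest change of the 48 in high calcium, with 69.4, 70.5 and 71.2 TPM in high calcium, 60.7, 55.1 and 59.3 TPM in TGFb3 and 87.2, 88.5 and 84.5 TPM in control. Its samples still did not overlap between groups, and its log2 difference was -0.30 in high calcium and -0.56 in TGFb3 (limma, Benjamini-Hochberg adjusted p = 0.00025 and 2.7e-06).

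The 3 regulators held the largest fall of the 48 in high calcium. FAM111B, a serine protease gene (chr11:59107185-59127410, plus strand), had 4.84, 4.88 and 4.74 TPM in high calcium, 16.8, 18 and 17.4 TPM in TGFb3 and 34.4, 33.4 and 32.9 TPM in control. High calcium samples were at 14.4% of the control mean and TGFb3 samples at 51.9%. The log2 difference was -2.57 ± 0.059 in high calcium and -0.91 ± 0.059 in TGFb3 (SE; limma, Benjamini-Hochberg adjusted p = 5.6e-10 and 5.9e-07). DTL, the substrate receptor of the ubiquitin ligase that destroys CDT1 in S phase, had 14.4, 14.5 and 14.9 TPM in high calcium, 35.3, 35.1 and 36.8 TPM in TGFb3 and 50.2, 51.7 and 50.5 TPM in control. Against control it differed by -1.73 in high calcium and -0.50 in TGFb3 on the log2 scale (limma, Benjamini-Hochberg adjusted p = 1.4e-09 and 7e-06). E2F1, the activating E2F factor, was low throughout, with 4.98, 4.11 and 4.07 TPM in high calcium, 7.22, 5.97 and 6.07 TPM in TGFb3 and 11.1, 11.2 and 12.7 TPM in control. Both treatments lay below the control without overlap, at -1.24 ± 0.11 and -0.77 ± 0.11 on the log2 scale (SE; limma, Benjamini-Hochberg adjusted p = 4.5e-06 and 0.00013).

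Members with an E2F-type match in the promoter had a median log2 difference from control of -1.71 in high calcium and -1.04 in TGFb3 (23 genes). Those without a match had -1.27 and -0.87 (19 genes). The ranges of both sets overlapped, from -2.35 to -0.57 with a match and from -1.96 to -0.30 without one in high calcium, and the difference between the sets was not tested.

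Set directly against each other, high calcium was lower than TGFb3 for most members. In limma, 37 of 48 members were called lower, 4 higher and 7 neither, where 16.2% of all tested symbols were called lower and 50.4% higher. After median ratio rescaling 42 members were lower and 1 higher (30.2% and 30.1% of tested symbols), after quantile normalisation again 42 and 1 (29.9% and 31.2%), and without the mitochondrial genes 41 and 2 (24.5% and 35.9%). The median log2 difference was -0.55 for the members and 0.27 for all tested symbols. Over the 48 genes the summed TPM of high calcium was 72.7% of that of TGFb3, and 63.4% with mitochondrial genes left out. A log2 difference of -1 or less was called for 6 members (3.64% of tested symbols). Samples of high calcium all lay below those of TGFb3 for 36 members and all above for 5, where 18.1% and 53.1% of tested symbols did so. The treatments differed most for FAM111B, at -1.66 ± 0.059 on the log2 scale, GINS2 at -1.30 ± 0.069, DTL at -1.23 ± 0.045 and GINS1 at -1.21 ± 0.066 (SE, high calcium minus TGFb3; limma, Benjamini-Hochberg adjusted p = 8.2e-09, 1.3e-07, 1.1e-08 and 1.6e-07).

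The exceptions came from several roles. CDC6 was higher in high calcium than in TGFb3 by 0.45 ± 0.054 on the log2 scale (SE; limma, Benjamini-Hochberg adjusted p = 4.2e-05), and this call held under every alternative, with values of 0.18 to 0.48. RPA2 (0.38 ± 0.059), SLBP (0.27 ± 0.045) and RFC4 (0.22 ± 0.063) were called higher in TPM as deposited (limma, Benjamini-Hochberg adjusted p = 0.00026, 0.00047 and 0.011), but after median ratio rescaling they stood at 0.098, -0.019 and -0.063 and were not called. MCM6 (0.07 ± 0.048), CDT1 (0.28 ± 0.12), CDC45 (-0.15 ± 0.14), RFC3 (0.00 ± 0.057), RFC5 (-0.07 ± 0.084), POLD1 (-0.18 ± 0.082) and PRIM1 (-0.01 ± 0.13) were not called. MCM6 and RFC3 were called lower in high calcium under each of the 3 rescalings, from -0.21 to -0.12 and from -0.27 to -0.19. RFC5 and POLD1 were called lower under all 3 as well, and CDC45 under median ratio rescaling and quantile normalisation. CDT1 stood at -0.04 after quantile normalisation, not called. Some of these calls changed when a single sample was left out. Leaving out TGFb3 replicate 3 gave 0.18 for PRIM1 and 0.36 for CDT1 on the log2 scale, both called higher (limma, Benjamini-Hochberg adjusted p = 0.028 and 0.029), and leaving out high calcium replicate 2 gave -0.24 for POLD1 (adjusted p = 0.033). Over all alternatives PRIM1 ran from -0.28 to 0.18 and was called only without TGFb3 replicate 3. POLA1 (-0.14 ± 0.051) and POLA2 (-0.24 ± 0.090), subunits of the priming polymerase alpha, were called lower but lost the call without high calcium replicate 1 or 3 and without TGFb3 replicate 3, with values of -0.15 to -0.11 for POLA1 and -0.24 to -0.18 for POLA2. The same held for POLA1 without TGFb3 replicate 2 and for POLA2 without TGFb3 replicate 1 or control replicate 2. Both were also not called when only the 2 groups compared were fitted (limma, Benjamini-Hochberg adjusted p = 0.057 for POLA1 and 0.068 for POLA2).

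**Figure D4:**
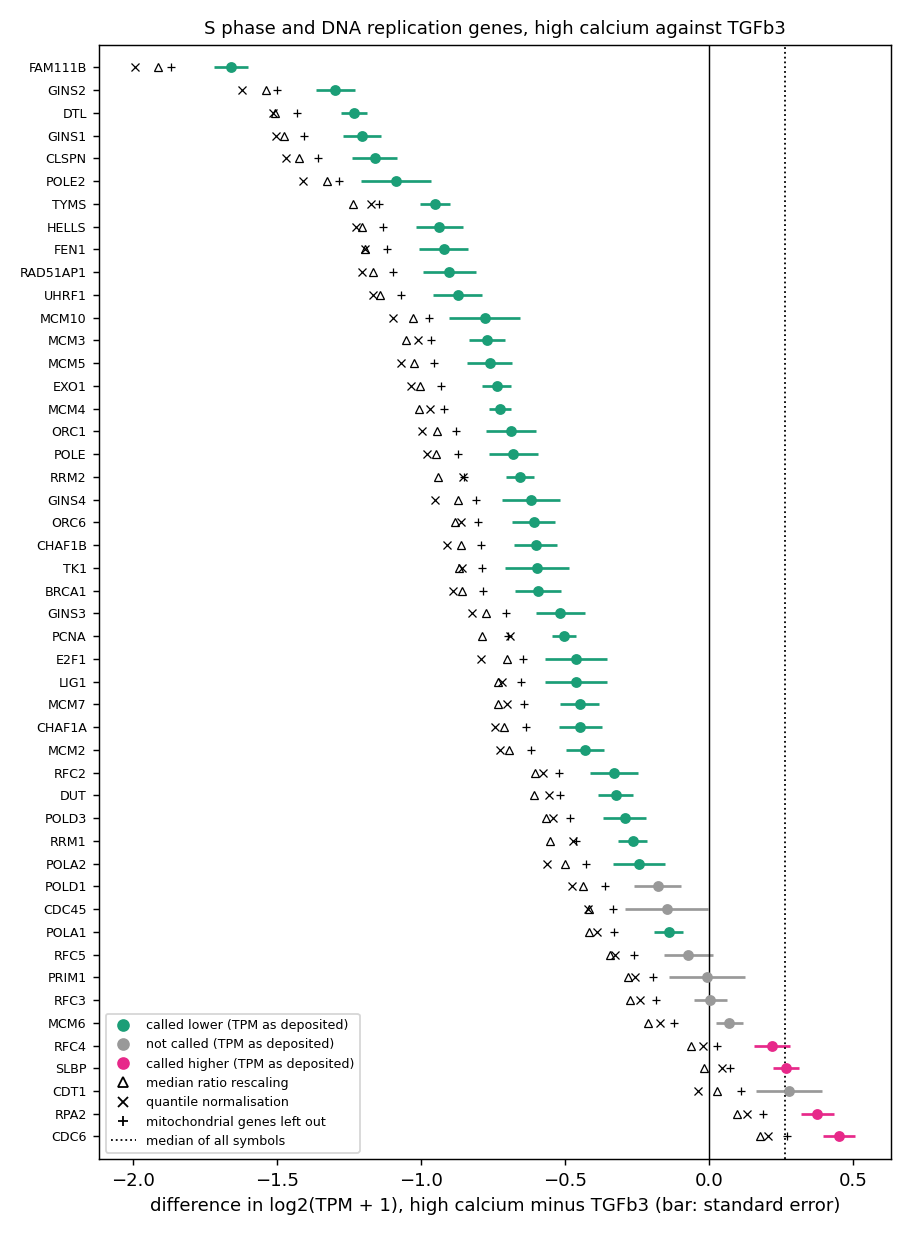
High calcium minus TGFb3 in log2(TPM + 1) for the 48 genes, sorted (filled circles, TPM as deposited, coloured by call; bars, standard error; open triangles, crosses and plus signs, the 3 rescalings; dotted line, median of all tested symbols). The genes run from -1.66 for FAM111B to 0.45 for CDC6, and the rescaled values lie to the left of the deposited ones.

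Levels of subunits of one complex were also compared within each sample, where a rescaling of the whole library drops out apart from the pseudocount. All 13 ratios in 3 comparisons gave 39 exact permutation tests, in which the smallest possible two-sided p is 0.1 and its Benjamini-Hochberg value 0.122, so none could pass the threshold. The log2 ratio of RRM2 to RRM1 was -0.35, -0.33 and -0.32 in high calcium, 0.04, 0.17 and -0.04 in TGFb3 and 0.52, 0.64 and 0.72 in control. The 3 groups did not overlap, and RRM2 was the more abundant subunit in control and the less abundant one in high calcium (exact permutation test, two-sided p = 0.1). MCM6 relative to the mean of the 6 helicase subunits was 0.88 ± 0.041 in high calcium, 0.29 ± 0.036 in TGFb3 and 0.34 ± 0.045 in control on the log2 scale (SD, n = 3 each), higher in each high calcium sample than in any other sample. GINS2 relative to the 4 GINS subunits was -0.70 ± 0.040 in high calcium, -0.31 ± 0.056 in TGFb3 and 0.00 ± 0.011 in control. CDT1 relative to GMNN, which encodes the geminin inhibitor of CDT1, was -2.60 ± 0.082 in high calcium, -3.28 ± 0.22 in TGFb3 and -3.57 ± 0.24 in control, with overlap of TGFb3 and control. E2F1 relative to RB1, the gene of the retinoblastoma protein, was -3.57 ± 0.14 in high calcium, -3.20 ± 0.21 in TGFb3 and -2.33 ± 0.056 in control.

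Other genes of the same processes, counted whether they moved or not, were less uniform than the members. Members and further lists were both chosen with earlier results of these data known. The part of that choice in the contrast was not tested. Of 19 further origin and licensing genes, 16 were called lower and 0 higher in high calcium, with 3 not called (limma, Benjamini-Hochberg). After median ratio rescaling 18 were lower and 0 higher there, where 29.9% and 30.4% of all tested symbols were. In TGFb3, 18 were lower and 0 higher, with 1 not called. Of all tested symbols, 17% were called lower and 46.1% higher in high calcium, and 33.1% and 26.5% in TGFb3. GMNN had 46.1, 46.9 and 46.8 TPM in high calcium, 61, 62.7 and 62.8 TPM in TGFb3 and 161, 169 and 144 TPM in control, with log2 differences of -1.74 and -1.33, both called. The kinase CDC7 and its activator DBF4, which fire origins, fell in both treatments, CDC7 to 46.6% of control in high calcium and 41% in TGFb3, and DBF4 to 47.6% and 48.6%. TIPIN, a fork protection factor, had 14.4, 14.8 and 18.1 TPM in high calcium, 7.57, 7.02 and 7.19 TPM in TGFb3 and 21.4, 19.6 and 18.4 TPM in control. It was called lower in both treatments, at -0.31 in high calcium and -1.33 in TGFb3 on the log2 scale, and the direct difference of 1.02 ± 0.095 was called (limma, Benjamini-Hochberg adjusted p = 7.1e-06).

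Of 22 further polymerase and fork genes, 11 were lower and 4 higher in high calcium (14 and 1 after median ratio rescaling). In TGFb3, 15 were lower and 1 higher (13 and 3 after it). Among all tested symbols, 17% were lower and 46.1% higher in high calcium (29.9% and 30.4% after it). In TGFb3 these shares were 33.1% and 26.5% (30.3% and 29.2% after it). DSCC1, ATAD5 and DNA2, which act on the clamp and on lagging-strand ends, fell in both treatments, with log2 differences of -1.23, -1.46 and -1.53 in high calcium and -1.28, -0.98 and -1.01 in TGFb3. POLD4, the small subunit of polymerase delta, went the other way, with 25.9, 29.4 and 28.6 TPM in high calcium, 34.6, 31 and 29.7 TPM in TGFb3 and 8.22, 9.24 and 6.93 TPM in control (1.67 ± 0.10 and 1.85 ± 0.10 on the log2 scale, limma, Benjamini-Hochberg adjusted p = 3.3e-07 and 1.7e-07). The other rises in high calcium, those of POLK, PRIMPOL and RFC1, were not called under any of the 3 rescalings. The count of 1 rise in TGFb3 became 2 without TGFb3 replicate 1 or 3 or control replicate 3.

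Of 26 further nucleotide supply genes, in high calcium 16 were lower and 6 higher (18 and 4 after median ratio rescaling). There, 17% of all tested symbols were lower and 46.1% higher (29.9% and 30.4% after it). In TGFb3 22 of the 26 were lower and 1 higher, where 33.1% and 26.5% of all tested symbols were. RRM2B, the alternative small subunit of ribonucleotide reductase known as a p53 target, had 95, 94.9 and 92.9 TPM in high calcium, 36.9, 37.8 and 43.6 TPM in TGFb3 and 54.1, 58.4 and 56.2 TPM in control. Every high calcium sample was above and every TGFb3 sample below the control, with log2 differences of 0.74 ± 0.062 and -0.51 ± 0.062 (SE; limma, Benjamini-Hochberg adjusted p = 3.9e-06 and 6.1e-05). The mitochondrial folate enzymes MTHFD2 and SHMT2 rose in high calcium by 0.99 and 0.73 on the log2 scale, while in TGFb3 the values were -0.06, not called, and -0.32, called lower. DHODH, an enzyme of pyrimidine synthesis, fell in TGFb3 (-1.49 on the log2 scale) and was not called in high calcium in TPM as deposited (-0.19). Set against TGFb3 directly, high calcium was higher for 18 of the 26 and lower for 2 (12 and 5 after median ratio rescaling), where 50.4% and 16.2% of all tested symbols were so called (30.1% and 30.2% after it). The median log2 difference of the list was 0.41, beside 0.27 for all tested symbols.

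Among 25 further repair and checkpoint genes, 20 were lower and 1 higher in high calcium (22 and 1 after median ratio rescaling), and 21 and 0 in TGFb3. All tested symbols had 17% lower and 46.1% higher in high calcium (29.9% and 30.4% after it), and 33.1% and 26.5% in TGFb3. RAD54L, XRCC2 and BLM, all recombination genes, fell most in high calcium, at -1.73, -1.58 and -1.48 on the log2 scale. XRCC3, XRCC2 and CHEK2 fell most in TGFb3, at -1.55, -1.16 and -1.08. RAD17, which loads the checkpoint clamp, was the one gene that rose in high calcium (0.52 ± 0.059 on the log2 scale, limma, Benjamini-Hochberg adjusted p = 3.2e-05). Of 11 further chromatin genes, 7 were lower and 1 higher in high calcium, and 9 and 0 in TGFb3. After median ratio rescaling 9 were lower and 0 higher in high calcium, where 29.9% and 30.4% of all tested symbols were. The histone chaperone NASP fell to 26.6% of control in high calcium and 47.4% in TGFb3 (-1.88 and -1.07 on the log2 scale).

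**Figure D5:**
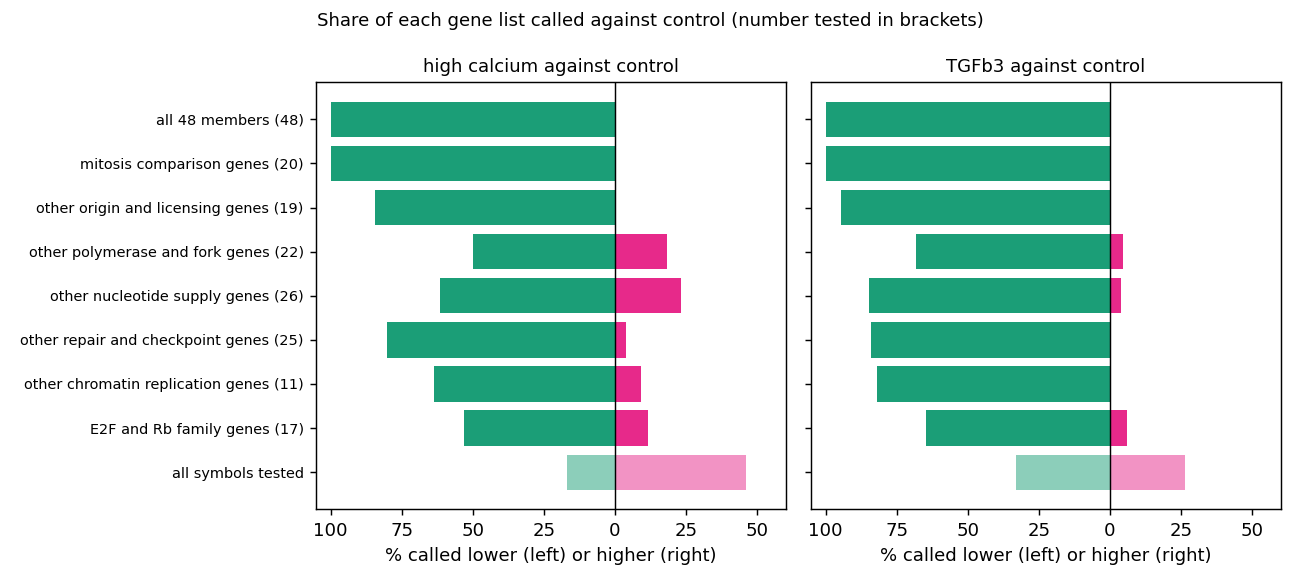
Share of each gene list called lower (bars to the left) or higher (bars to the right) against control in limma, with high calcium in the left panel and TGFb3 in the right (number of tested genes in brackets; pale bars, all tested symbols). The 48 members and the 20 mitosis genes reach 100% lower in both panels, beside 17% and 33.1% of all tested symbols.

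In the E2F and retinoblastoma families, called genes were mostly lower, with exceptions. Of 17 such genes besides E2F1, 9 were lower and 2 higher in high calcium (13 and 1 after median ratio rescaling). In TGFb3 the counts were 11 and 1, and the 1 rise, that of LIN37, was lost without TGFb3 replicate 2 or control replicate 3. All tested symbols had 17% lower and 46.1% higher in high calcium (29.9% and 30.4% after rescaling), and 33.1% and 26.5% in TGFb3. The median log2 difference of the list was -0.28 in high calcium and -0.44 in TGFb3, beside 0.22 and -0.06 for all tested symbols. The activating factor E2F2, the repressor E2F8 and MYBL2, which encodes the factor B-Myb, fell in both treatments, with log2 differences of -1.74, -1.65 and -1.76 in high calcium and -1.35, -0.91 and -0.36 in TGFb3. E2F5, an E2F of the repressor class, had 42.6, 36.9 and 40.6 TPM in high calcium, 8.51, 7.53 and 11 TPM in TGFb3 and 26.3, 26.8 and 27.3 TPM in control. It rose in high calcium and fell in TGFb3, with log2 differences of 0.56 ± 0.11 and -1.49 ± 0.11 (SE; limma, Benjamini-Hochberg adjusted p = 0.0015 and 1.7e-06). RB1 was at 62.6, 61.4 and 64.4 TPM in high calcium, 62.8, 68.2 and 70.1 TPM in TGFb3 and 61, 62 and 64.8 TPM in control and was not called in TPM as deposited, though after median ratio rescaling it was called lower in high calcium at -0.23 and higher in TGFb3 at 0.14 on the log2 scale.

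Of 15 cyclins, kinases and inhibitors that act before and in S phase, 13 could be tested. In high calcium 8 were lower and 4 higher, where 17% and 46.1% of all tested symbols were, and in TGFb3 5 were lower and 5 higher, where 33.1% and 26.5% were. The median log2 difference in TGFb3 was -0.058 for the list and -0.056 for all tested symbols. CDKN1A, which encodes the CDK inhibitor p21, had 108, 105 and 102 TPM in high calcium, 108, 101 and 90.5 TPM in TGFb3 and 32.6, 31.8 and 35.9 TPM in control. It rose in both, by 1.63 and 1.55 on the log2 scale (limma, Benjamini-Hochberg adjusted p = 3.4e-08 and 5.4e-08). The cyclin E gene CCNE2 had 3.17, 1.26 and 1.84 TPM in high calcium, 9.19, 8.68 and 7.31 TPM in TGFb3 and 9.28, 10.3 and 9.36 TPM in control. CCNE2 was lower in high calcium (-1.83 ± 0.19 on the log2 scale) and was not called in TGFb3 (-0.18 ± 0.19), and the direct difference of -1.65 ± 0.19 was called (limma, Benjamini-Hochberg adjusted p = 3.7e-05). CDK2, the kinase that cyclin E activates, was at 39.7, 37.9 and 37.9 TPM in high calcium, 67.1, 68.5 and 67.1 TPM in TGFb3 and 67.2, 70.2 and 68.6 TPM in control, a direct difference of -0.80 ± 0.040 (limma, Benjamini-Hochberg adjusted p = 9.4e-08). CCNE1 showed the same order with a smaller size, at -0.49 ± 0.088 in high calcium and -0.06 ± 0.088 in TGFb3 on the log2 scale, the second not called. In TGFb3, CDK4 was called lower (-1.04) and CDK6 higher (1.06) on the log2 scale.

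The 20 genes of mitosis used for comparison were all called lower in both treatments as well. Of all tested symbols, 17% were called lower in high calcium and 33.1% in TGFb3. The median log2 difference of the mitosis genes was -1.14 in high calcium and -0.81 in TGFb3, beside -1.40 and -0.89 for the 48 S phase members. MKI67, the gene of the Ki-67 proliferation antigen, was at 51.7, 50.6 and 48 TPM in high calcium, 89.3, 92.8 and 93.8 TPM in TGFb3 and 168, 161 and 171 TPM in control. No difference between the lists was tested.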

How the data were processed

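RNA of 9 MCF10A samples was read as paired ends of 101 bp, per the labels' protocols. The authors deposited 1 table of TPM values for 58288 entries. HISAT2 and hg38 are named per the submitters' processing notes. Not given in the sources used here are the program that made the TPM values, the annotation release, the strand setting and how RNA was selected. All 9 value columns matched a sample by its label, and 0 were left over. TPM keeps no depth, so no counting error is given.

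Entries sharing a symbol (253 symbols) were summed, which gave 56609 symbols. A limma model (limma 3.58.1, R 4.3.3) with the 3 groups and 6 residual degrees of freedom was fitted to log2(TPM + 1) of the 13968 symbols averaging 1 TPM or more, with a variance trend. This scale understates changes of low genes. Calls were made where the two-sided p, adjusted by Benjamini-Hochberg over all tested symbols, was under 0.05. Sums and ratios per sample were compared by exact permutation tests. The fit was tested on simulated data. Tables and figures used Python 3.11.15, pandas 2.3.3 and matplotlib 3.10.9. Gene positions and overlaps come from GENCODE 29 (hg38) and promoters from RefSeq. Of the 48 members, 15 overlap an annotated gene of at least 1 TPM, and reads shared between such genes cannot be told apart here.

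The members and the other lists were chosen with earlier results of these data known. Genes with values per sample were the 2 largest falls and the smallest one in each role group for each treatment, every member not called or called higher, up to 3 called genes per direction of the other lists, and a fixed set (among them MCM2, MCM7, PCNA, RRM1, RRM2, CDC6, CDT1, E2F1, SLBP, GMNN, CDKN1A and MKI67). Not every gene so picked is named, and ORC1, GINS1 and RB1 were added after their values were seen. Alternatives were the 3 rescalings, other pseudocounts, filters and variance settings, a replicate block, fits of 2 groups and leaving out each sample.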

Additional observations from a re-analysis of the deposited data

How the results depend on the processing

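Every one of the 19 alternatives kept all 48 members called lower in high calcium against control and in TGFb3 against control. In TPM as deposited, 17% and 33.1% of all tested symbols were called lower in these comparisons. In high calcium against TGFb3 the members called lower numbered 35 to 42, and those called higher 1 to 6. Of all tested symbols, 16.2% were called lower and 50.4% higher in that comparison in TPM as deposited. After median ratio rescaling these shares were 30.2% and 30.1%. Members called higher there, 4 in TPM as deposited, numbered 1 after median ratio rescaling, 1 after quantile normalisation and 2 with mitochondrial genes left out. Some directions turned under a rescaling, and the cause was not tested. MCM6 changed to -0.21, -0.17 and -0.12 and RFC3 to -0.27, -0.24 and -0.19 on the log2 scale under median ratio rescaling, quantile normalisation and without mitochondrial genes. RFC4 changed to -0.063 and -0.019 under the first 2 of these, and SLBP to -0.019 under the first. CDT1, not called, stood at -0.04 under quantile normalisation. PRIM1 ranged from -0.11 to 0.18 when 1 sample was left out, with 0.18 and a call without TGFb3 replicate 3. Its lowest value over all alternatives was -0.28, not called. POLA1 and POLA2 were no longer called lower under several alternatives that left out a sample, and the summed TPM of the 48 members ranged from 36.0% to 37.1% of control in high calcium, from 49.6% to 51.1% in TGFb3 and from 72.0% to 73.2% between the treatments when 1 sample was left out.

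Deviations of same-numbered samples correlated at -0.075 to -0.0037, so no shared effect of the replicate number was seen. This cannot tell whether same-numbered samples were handled together, which the labels do not say. With the replicate number as a block, 48 members remained lower in each treatment, and in high calcium against TGFb3 35 were lower and 5 higher. Of the 13968 tested symbols, 2299 were lower in high calcium and 4455 in TGFb3 with this block. In high calcium against TGFb3, 2194 of them were lower and 6924 higher. There POLA1 and POLA2 lost their call (limma, Benjamini-Hochberg adjusted p = 0.052 and 0.064) and CDT1 was called higher (adjusted p = 0.049). Depth is unknown, so the precision of low values such as those of E2F1 cannot be given.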

Other observations

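Replication-dependent histone genes, whose mRNAs SLBP binds and mostly lack a poly(A) tail, were counted apart from the 48 S phase genes. Of 74 such genes in the table only 13 reached a mean of 1 TPM, and the selection of RNA is not given in the sources used here. In high calcium 2 of the 13 were called lower and 6 higher, and in TGFb3 3 and 5 (limma, Benjamini-Hochberg adjusted p under 0.05). Of all tested symbols, 17% were lower and 46.1% higher in high calcium, and 33.1% and 26.5% in TGFb3, so the shares in high calcium are near those of all symbols. Without the filter on low values more of the 74 genes were tested, and 5 were called lower and 10 higher in high calcium. Of the 26932 symbols tested without the filter, 2321 were lower and 7206 higher there. The 2 falls in high calcium became 1 without high calcium replicate 1 or 3 or control replicate 2, and the 3 falls in TGFb3 became 1 without TGFb3 replicate 2. HIST1H2BD, a histone H2B gene, had 11.9, 8.5 and 10.4 TPM in high calcium, 9.45, 8.73 and 7 TPM in TGFb3 and 3.26, 2.96 and 2.24 TPM in control. Both treatments lay above the control without overlap, at 1.56 and 1.30 on the log2 scale (limma, Benjamini-Hochberg adjusted p = 1.2e-05 and 4.5e-05). HIST1H2BH fell in both, averaging 0.526 TPM in high calcium and 1.13 TPM in TGFb3, against 2.06 TPM in control.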
